A study of Mus musculus with 24 samples.

Results

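Immediate early genes are the genes a cell transcribes first when a signal arrives, before any new protein has been made. In β cells, the insulin-secreting cells of the pancreatic islet, calcium entry and cAMP after a glucose stimulus switch them on through kinases that act on factors bound to their promoters, such as CREB. Most of their products are themselves transcription factors, and both the mRNAs and the proteins are short-lived. The 10 genes described here were Fos, Fosb, Jun, Junb, Egr1, Nr4a1, Nr4a2, Npas4, Arc and Ier2, taken by name from the deposited count table, where all 10 were found among 33619 genes and all 10 passed the filter on low counts that kept 19235 genes for testing.

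The cells came from mice with the Ins1Apple allele, which marks β cells with a red fluorescent protein, and the question was whether the diet of the dam leaves a mark on these genes in the adult offspring. For 2 weeks before mating to Ins1Apple males, the wild-type CD1 dams were on control chow (ND), on a diet high in fat (HFD) or on one low in protein (LPD). From birth on all mice were on the control diet. At about 7 weeks the islets of sons and daughters were isolated and dispersed, and Apple-positive cells were sorted before RNA was prepared, so the levels below are those of dispersed and sorted cells. There were 24 libraries in 6 groups of 4: ND, HFD and LPD females and ND, HFD and LPD males. All 6 groups carry the allele, no litter or dam is named, and p-values therefore measure the spread between these samples only.

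Depth ranged from 12433228 to 26375565 counts per library (median 20719858). Ins1 and Ins2, the insulin genes, took 7.65 to 27.5% of the counts, and 10 of 10 β-cell markers were above 0 in 24 of 24 libraries. The 4 HFD female libraries stood apart in their share of genes at low counts. Of their detected genes 4.4 to 8.18% had 1 to 9 counts, against 13.2 to 31.9% in the other 20 libraries. They detected 13225 to 19404 genes and the other 20 libraries 19160 to 25830, so these ranges overlapped. A list of 10 hepatocyte genes was called higher under HFD than under ND for 10 of 10, and summed to 66.0 to 213 CPM, counts relative to library size, in the HFD libraries, against 1.15 to 2.09 in the ND libraries; its part in the values below was not tested. Groups follow the column names of the table, whose female or male part matched the counts of Xist and the Y-linked genes in 24 of 24 libraries. The library numbers on the line above those names would instead move 24 columns to a different diet. They would also move 8 of them between females and males, against those counts. Every diet result below holds only if the column names are right.

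Promoter sequences are shown for a feature that the choice of genes did not use, the CREB-type half-site. RefSeq windows from 250 bases before to 50 bases after the transcription start (GRCm38.p6) were matched by symbol for 7 of the 10 members: Fos, Fosb, Jun, Junb, Nr4a1, Nr4a2 and Npas4. The half-site of the cAMP response element, TGACG on either strand, occurred in 6 of these 7 windows and in 20.81% of all 32851 windows of the same length. Capitals mark that half-site, which reads CGTCA where it lies on the other strand. Whole windows are given for Fos (chr12:85473640-85473939, plus strand), Npas4 (chr19:4989922-4990221, minus strand), Nr4a1 (chr15:101266596-101266895, plus strand) and Nr4a2 (chr2:57123954-57124253, minus strand), all written 5′ to 3′ along the gene.
Fos: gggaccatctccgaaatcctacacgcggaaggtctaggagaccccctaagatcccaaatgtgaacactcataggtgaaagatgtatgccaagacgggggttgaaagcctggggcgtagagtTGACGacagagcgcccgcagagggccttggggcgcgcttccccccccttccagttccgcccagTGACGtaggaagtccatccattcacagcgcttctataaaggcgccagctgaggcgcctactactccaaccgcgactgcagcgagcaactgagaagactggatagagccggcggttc
Npas4: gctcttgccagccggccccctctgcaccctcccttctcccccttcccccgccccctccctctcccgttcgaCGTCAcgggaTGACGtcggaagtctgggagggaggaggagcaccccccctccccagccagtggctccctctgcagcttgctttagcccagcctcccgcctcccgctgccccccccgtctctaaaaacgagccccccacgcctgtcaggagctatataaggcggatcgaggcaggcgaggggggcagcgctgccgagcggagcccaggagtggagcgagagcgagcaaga
Nr4a1: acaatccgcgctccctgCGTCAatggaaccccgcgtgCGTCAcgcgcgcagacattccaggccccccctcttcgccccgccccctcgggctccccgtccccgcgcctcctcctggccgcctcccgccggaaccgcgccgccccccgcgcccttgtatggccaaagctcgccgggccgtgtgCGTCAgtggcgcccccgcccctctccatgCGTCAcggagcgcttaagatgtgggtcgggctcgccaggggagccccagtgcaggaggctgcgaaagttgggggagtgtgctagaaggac
Nr4a2: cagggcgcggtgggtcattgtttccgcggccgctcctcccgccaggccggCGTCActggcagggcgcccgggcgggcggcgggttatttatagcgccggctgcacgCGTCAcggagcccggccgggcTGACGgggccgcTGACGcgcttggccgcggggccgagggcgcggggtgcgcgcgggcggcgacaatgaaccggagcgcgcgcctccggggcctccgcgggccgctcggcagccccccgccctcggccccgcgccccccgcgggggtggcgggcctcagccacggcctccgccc

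For the other 3 members, 30 bases around the match are given: Fosb (chr7:19310088-19310117, minus strand), Jun (chr4:95052250-95052279, minus strand) and Junb (chr8:84978837-84978866, minus strand). In Jun the capitals mark TGACATCA, a variant of the element that lacks the half-site, occurs in 3.62% of all windows and was found in 1 of the 7. The variant was marked only where the half-site was missing, so its match in Jun is a description and no separate result.
Fosb: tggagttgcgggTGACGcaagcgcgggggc
Jun: aaagcctcggggTGACATCAtgggctattt
Junb: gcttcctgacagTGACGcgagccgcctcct

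Counted from -1 for the base before the start, the half-sites of Fos began at -129 and -66, that of Fosb at -60 and that of Junb at -106. Npas4 held 2 matches at -179 and -169. Nr4a1 and Nr4a2 held 4 each. The full palindrome TGACGTCA, which contains the half-site on both strands, was in 0 of the 7 windows and in 1.79% of all windows. The CArG box, the binding sequence of serum response factor, was in 0 of 7 and in 1.63% of all, and the AP-1 sequence TGANTCA, bound by Fos and Jun dimers, was in 0 of 7 and in 7.81% of all. All were searched on both strands. These are matches of letters within 300 bases and say nothing about binding.

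Per length of transcript, several members were among the most abundant mRNAs of these dispersed and sorted β cells. Their levels before isolation and sorting were not measured. Over 24 libraries the mean FPKM (counts scaled by gene length and library total) of Fos was 528, which placed it 23rd of 33619 genes. The other AP-1 genes followed, with Fosb at 258 FPKM, Jun at 227 and Junb at 190. The zinc finger factor Egr1 stood at 144 FPKM and Ier2, a small nuclear protein, at 103. The orphan nuclear receptor Nr4a1 was at 42.1 FPKM. Npas4, a factor that neurons induce on calcium entry, was at 18 FPKM, and Arc, known from synapses for its role at the postsynaptic cytoskeleton, at 14.6. Nr4a2 was the lowest at 3.06 FPKM and ranked 9093rd, with 90 to 636 counts per library. Together the 10 genes took 0.292 to 0.812% of all counts, with a median of 0.494%.

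The genes lie at Fos, chromosome 12: 85473890 to 85477273; Fosb, chromosome 7: 19302696 to 19310051; Jun, chromosome 4: 95049034 to 95052222; Junb, chromosome 8: 84974484 to 84978718; Nr4a1, chromosome 15: 101254269 to 101274795; Nr4a2, chromosome 2: 57106830 to 57124003; Npas4, chromosome 19: 4984355 to 4990316; Arc, chromosome 15: 74669083 to 74672570; and Ier2, chromosome 8: 84661331 to 84662854, as the deposited table gives them on GRCm38. Egr1 is on chromosome 18. All 10 are annotated as protein-coding.

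**Figure D1:**
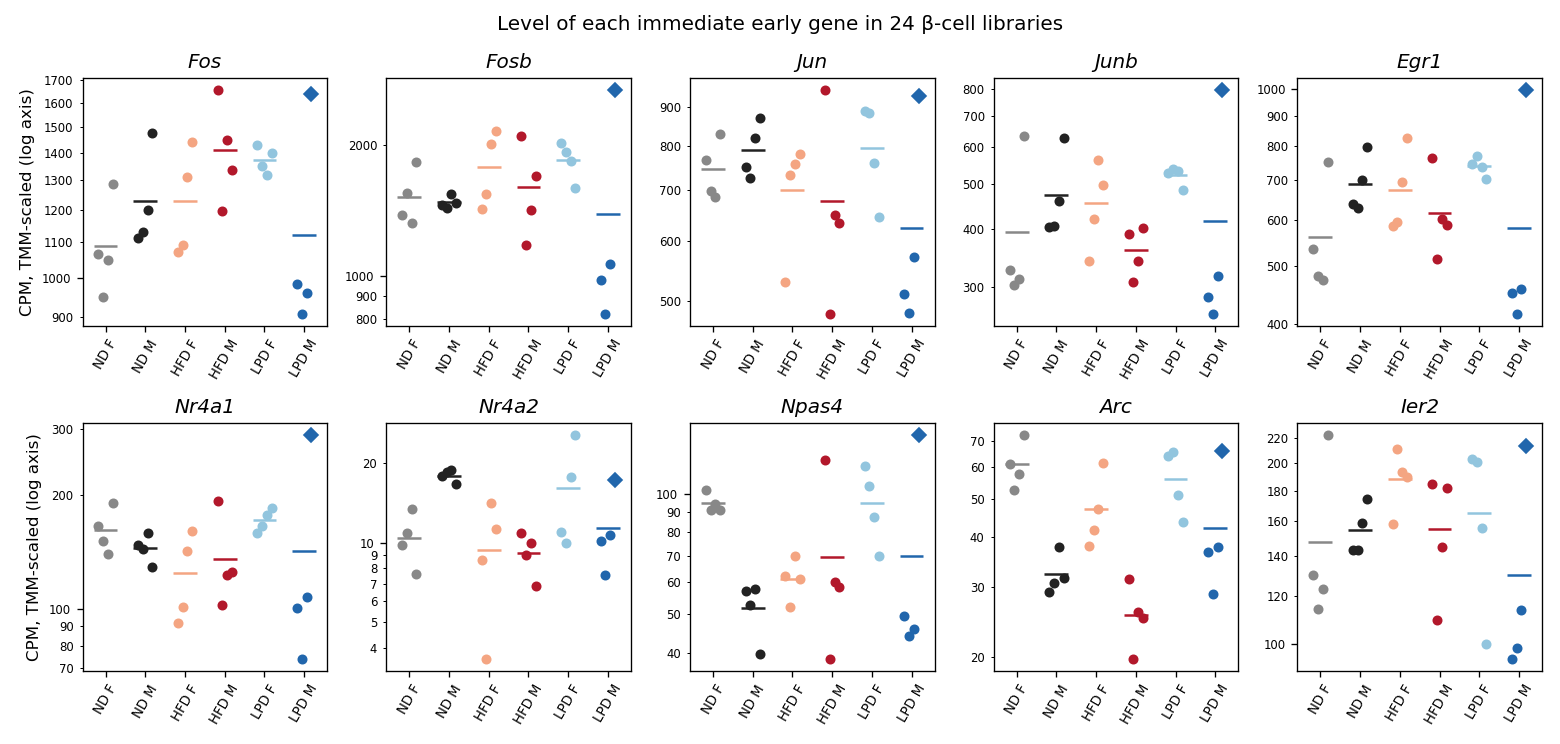
Level of each of the 10 genes in every library, in CPM after TMM scaling on a log axis. Points are libraries, horizontal bars are means of 4, the diamond is LPD male 4, and F and M are females and males. The diamond is the highest point of the LPD males in all 10 panels, and the ND and HFD males lie below the females of the same diet for Arc.

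Maternal HFD left no member past the test over both sexes. Levels are given from here on as CPM after TMM scaling, a library size correction, and differences as log2 fold changes with their standard error from edgeR's quasi-likelihood test, fitted to all 24 libraries and adjusted by Benjamini-Hochberg over 19235 genes. For HFD against ND, 0 of 10 members had an adjusted p below 0.05, where 7.20% of all genes tested did. The member median was a log2 difference of -0.096 and that of all tested genes -0.056. By unadjusted p, 2 of 10 members and 3677 of 19235 genes were below 0.05. These members were Nr4a2, at -0.56 ± 0.23 (adjusted p = 0.168), and Arc, at -0.36 ± 0.14 (adjusted p = 0.142). Fos differed by 0.19 ± 0.11 with a 95% interval of -0.031 to 0.40, which in fold terms ends at 1.32. Leaving out HFD female 4 brought Arc past the threshold, at -0.44 (adjusted p = 0.0486). DESeq2, limma-trend on FPKM and voom with sample weights also called 0 of 10.

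By sex the HFD values were as follows. In females 0 of 10 members were called against 9.33% of all genes, and in males 0 of 10 against 1.25%. The lowest adjusted p in females was that of Npas4, at -0.62 ± 0.30 (adjusted p = 0.216), and in males that of Nr4a2, at -0.97 ± 0.33 (adjusted p = 0.181). For the difference of the HFD effect between males and females, 0 of 10 members and 3.64% of all genes were called. Npas4 had the lowest p of the members there, at 1.05 ± 0.42 (adjusted p = 0.189), its HFD difference being -0.62 in females and 0.43 in males. In females 4233 genes and 1 member, and in males 1831 genes and 1 member, had an unadjusted p below 0.05. DESeq2 and limma-trend called 0 of 10 in either sex and in their difference. The 9.33% of genes called in females came from the fit over all 6 groups. Fitted on the ND and HFD females alone, edgeR called 27 of 16824 genes and 0 of 10 members. Fitted on the ND and HFD males alone, Junb (-0.38, adjusted p = 0.0429) and Nr4a2 (-0.96, adjusted p = 0.000225) were called lower, 2 of 10 members beside 7.18% of genes called lower, and voom called 3 of 10, these 2 and Fos (0.26, adjusted p = 0.00786), beside 21.8% of genes called.

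The Npas4 and Nr4a2 libraries show what lies behind these values. Npas4 stood at 102, 91.0, 94.1 and 90.9 CPM in ND females, and at 62.2, 52.1, 70.1 and 61.2 CPM in HFD females. The ranges of these groups did not overlap. Npas4 and Nr4a2 are shown because they had the lowest p-values of the members. Here and below, the share of all genes whose groups separate in this way was not counted, so separation is a description only. ND males were at 57.1, 52.7, 57.8 and 39.8 CPM, all below the ND females. HFD males were at 121, 38.6, 60.1 and 58.5 CPM, so that 1 library exceeded every ND library while the other 3 were within or below the range of the HFD females. LPD females were at 118, 105, 87.6 and 69.9 CPM and LPD males at 49.5, 44.1, 45.9 and 140 CPM.

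Nr4a2, a relative of Nr4a1 that is known as a factor of dopamine neurons, was at 17.9, 18.5, 18.9 and 16.7 CPM in ND males and at 10.9, 9.0, 10.02 and 6.84 CPM in HFD males. Every ND male library was above every HFD male and every ND female library, the latter at 9.80, 10.9, 13.4 and 7.64 CPM. HFD females spread more widely, at 8.62, 3.62, 14.1 and 11.3 CPM. LPD females were at 10.98, 9.97, 17.7 and 25.7 CPM and LPD males at 10.2, 7.54, 10.7 and 17.2 CPM, so both overlapped the ND males.

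Maternal LPD also left no member past the test over both sexes. For LPD against ND, 0 of 10 members were called, beside 0.832% of all genes, the lowest adjusted p among the members was 0.946, and 0 members but 1790 genes had an unadjusted p below 0.05. DESeq2, limma-trend and voom called 0 of 10 as well. The member median was 0.083 and that of all tested genes -0.0082. Fos differed by 0.10 ± 0.11 and Egr1 by 0.072 ± 0.14, with 95% intervals of -0.12 to 0.32 and -0.22 to 0.36.

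**Figure D2:**
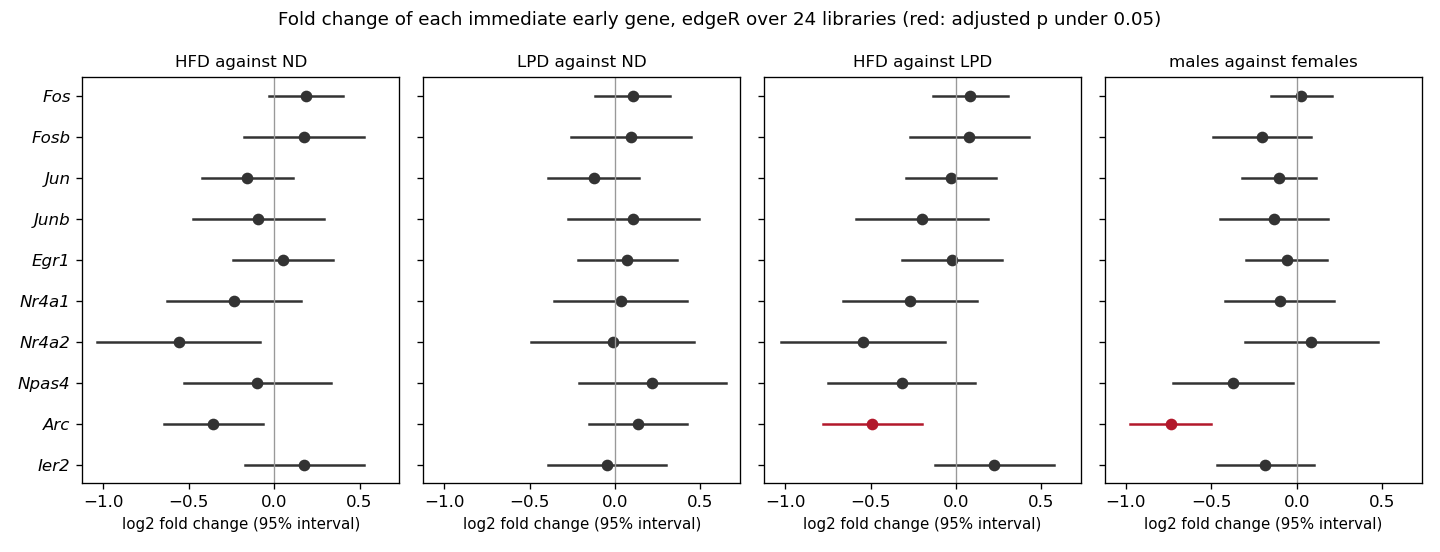
Log2 fold changes of the 10 genes in the 4 comparisons over all groups, as points with 95% intervals from edgeR over 24 libraries. Red marks an adjusted p below 0.05: Arc in HFD against LPD (-0.49) and Arc in males against females (-0.74). The other points are uncalled.

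Within each sex the fitted LPD values of most members had opposite signs, and edgeR called none of them over 24 libraries. In LPD females 9 of 10 members were above their ND level by the fitted value, with a median of 0.22 against 0.0022 for all genes, and 0 of 10 were called beside 0.307% of all genes. Fos had the lowest p there, at 0.34 ± 0.15 (adjusted p = 0.561), and all 4 LPD female libraries (1431, 1349, 1319 and 1399 CPM) were above the 4 ND female libraries (1065, 951, 1049 and 1289 CPM). No other member separated these groups, and the share of all genes that did was not counted. In LPD males 2 of 10 members were above their ND level, with a median of -0.16 against 0 for all genes, and 0 of 10 were called beside 0.187%. For the difference of the LPD effect between males and females, 0 of 10 members were called beside 0.0052% of genes. DESeq2 and limma-trend called 0 of 10 in each of these. Voom called Fos, Junb and Egr1 higher in LPD females, 3 of 10 beside 4.69% of genes called higher, and 7 of 10 lower in the difference between the sexes beside 3.52%. The members with an unadjusted p below 0.05 in the edgeR test of that difference were Nr4a2 (-1.28 ± 0.46), Egr1 (-0.65 ± 0.28) and Fos (-0.47 ± 0.21), each with an adjusted p of 0.762 to 1. In LPD females 1 member and 1458 genes, and in LPD males 0 members and 1081 genes, had an unadjusted p below 0.05.

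The LPD male values depended most on 1 library. LPD male 4 was the highest of its group for 10 of 10 members, at 1.73 to 3.08 times the mean of the other 3 LPD males, with a median of 2.18 times. Egr1, a gene that glucose induces in β cells, stood at 450, 415 and 458 CPM in LPD males 1 to 3 and at 997 CPM in LPD male 4. Fos was at 984, 907 and 961 CPM and then 1640, and Fosb at 983, 819 and 1070 CPM and then 2678. The first 3 libraries were below every ND male library for Fos, Fosb and Egr1 (lowest ND male 1112, 1431 and 628 CPM), and the last was above every one. LPD male 4 also had the lowest share of counts from the insulin genes in its group, 11.3% against 17.0 to 22.6%, the lowest summed level of 10 β-cell markers, 132562 CPM against 188059 to 245919, and 20278 detected genes against 19160 to 23930. Of the marker lists for other cells it was highest in its group for 8 islet endocrine genes (2306 CPM against 1795 to 2046, 0 at zero) and lowest for 10 acinar genes (500 CPM against 721 to 830, 1 at zero). It was highest too for 5 duct genes (285 CPM against 217 to 255), 6 immune genes (28.4 against 21.4 to 25.4), 6 endothelial genes (8.71 against 6.51 to 8.56) and 10 hepatocyte genes (3.54 against 1.08 to 2.12, 8 of 10 at zero). It was also highest for 15 heat shock genes, at 4314 CPM against 3608 to 3706. The part of these in its member levels was not tested.

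Each library was left out in turn, and LPD male 4 is singled out here by its member values, after they were seen. Without it the fitted values in LPD males were lower for 10 of 10 members. That follows from its place as the highest of its group for 10 of 10, and is no separate result. Egr1 was then called lower in LPD than in ND males, at -0.65 (adjusted p = 0.0283), which made 1 of 10 members beside 0.604% of all genes called lower. Fosb (-0.63), Jun (-0.60), Junb (-0.72) and Nr4a1 (-0.63) had adjusted p-values of 0.0643, 0.0912, 0.117 and 0.139. In the difference of the LPD effect between the sexes Egr1 was called as well (-1.05, adjusted p = 0.0136), 1 of 10 members beside 0.213% of genes called lower. A limma voom fit with a weight for each sample, which keeps all 24 libraries and gave LPD male 4 the lowest weight of its group (0.294, against 0.396 to 3.87), called 8 of 10 members lower in LPD than in ND males beside 9.74% of all genes. The uncalled members were Npas4 and Arc, at -0.081 and 0.21.

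**Figure D3:**
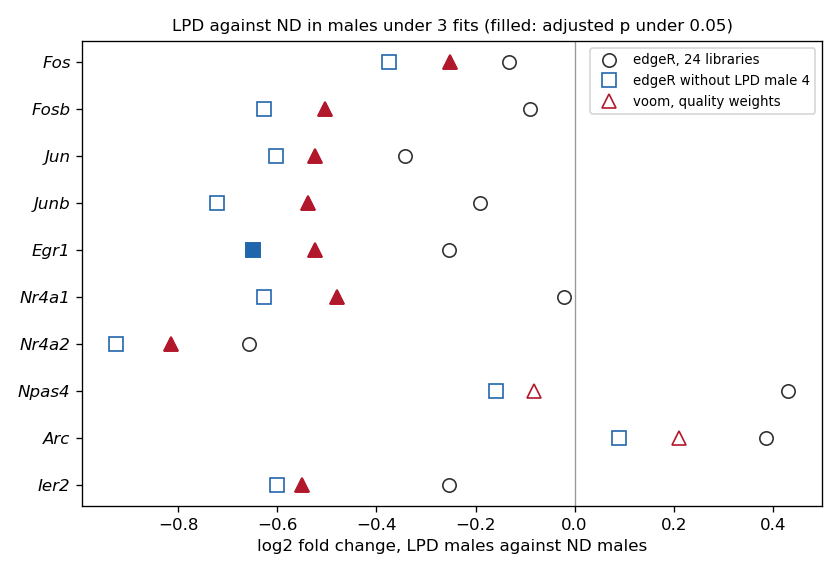
Log2 fold changes of the 10 genes in LPD against ND males under 3 fits: edgeR over 24 libraries (circles), edgeR without LPD male 4 (squares) and voom with sample weights (triangles). Filled symbols have an adjusted p below 0.05, which are 0 circles, the Egr1 square and 8 triangles. For 10 of 10 genes the square lies to the left of the circle, which follows from LPD male 4 being the highest of its group for each.

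Arc was the member with the clearest difference between the sexes. It stood at 61.2, 52.5, 57.8 and 72.5 CPM in ND females and at 29.1, 30.6, 37.7 and 31.6 CPM in ND males, with means of 61.0 ± 8.48 and 32.3 ± 3.77 (SD, n = 4). HFD females were at 37.9, 41.8, 47.2 and 61.4 CPM and HFD males at 31.4, 19.7, 25.9 and 25.0 CPM. In both diets every female library was above every male library, and the share of all genes that separate in this way was not counted. LPD females were at 64.2, 65.6, 51.2 and 43.7 CPM, and LPD males at 36.6, 28.8, 37.8 and 65.8 CPM, the highest male value again that of LPD male 4, so these groups overlapped.

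Over all diets Arc was lower in males than in females by 0.74 ± 0.12 on the log2 scale, a fold of 0.600 (95% interval 0.509 to 0.707), with an adjusted p of 0.000261. It was the 1 member of 10 called, and lower, beside 4.87% of all genes called and 1.28% called lower. By diet the log2 difference was -0.92 ± 0.20 under ND (adjusted p = 0.0235), -0.88 ± 0.20 under HFD (adjusted p = 0.00605) and -0.41 ± 0.20 under LPD (adjusted p = 0.932), all contrasts of the same fit that were added after the values were seen. The sex difference under LPD minus that under ND was 0.51 ± 0.28 (adjusted p = 1), so that a smaller difference under LPD was not shown. Over the ND and LPD groups the sex difference was -0.67 ± 0.14 (adjusted p = 0.0132), a contrast also added after the values were seen. The HFD libraries had no weight in this contrast but stayed in the fit that gave its standard error. Without LPD male 4, the library singled out by its member values, 3 of 10 members were called lower in males beside 1.69% of genes called lower. These were Arc (-0.83, adjusted p = 4.07e-06), Npas4 (-0.57, adjusted p = 0.00837) and Fosb (-0.38, adjusted p = 0.00893). With all libraries Npas4 stood at -0.38 ± 0.17 (adjusted p = 0.268) and Fosb at -0.20 ± 0.14 (adjusted p = 0.555). Of the marker lists, 3 of 8 islet endocrine genes of non-β cells were called higher in males (list median 0.35), as were 2 of 10 β-cell markers and 1 of 4 stromal genes tested, and their part in the Arc difference was not tested. The other 7 members differed between the sexes by -0.18 to 0.086, and 3056 genes had an unadjusted p below 0.05.

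The HFD and LPD offspring were also set against each other. Arc was lower under HFD than under LPD by 0.49 ± 0.14 on the log2 scale (fold 0.712, adjusted p = 0.0256), 1 of 10 members beside 9.99% of all genes called and 7.61% called lower. In females the difference was -0.26 ± 0.20 (adjusted p = 0.501) and in males -0.72 ± 0.20 (adjusted p = 0.0534), each a contrast added after the values were seen. The call was lost without HFD male 2, LPD female 1, LPD female 2 or LPD male 4, with adjusted p-values of 0.0642, 0.0558, 0.0591 and 0.0663, and without LPD male 4 Fosb passed instead, at 0.34 (adjusted p = 0.0396). Fitted on the HFD and LPD libraries alone it was -0.49 (adjusted p = 0.0888), and with limma-trend -0.41 (adjusted p = 0.0862). In the same comparison 10 of 10 hepatocyte genes and 6 of 15 heat shock genes were called higher. Lower were 3 of 9 acinar, 1 of 4 stromal and 1 of 4 immune genes tested, and of 10 β-cell markers 1 was higher and 2 lower. The part of these in the Arc difference was not tested. Nr4a2 was at -0.54 ± 0.23 (adjusted p = 0.152). The HFD and LPD comparisons with ND share the ND libraries.

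In the test for any difference among the 6 groups, Arc was the 1 member called (adjusted p = 0.000667) beside 11.7% of all genes. Its order ran from ND females (61.0 CPM) over LPD females (56.2), HFD females (47.1), LPD males (42.3) and ND males (32.3) to HFD males (25.5), and every pair of neighbours in that order overlapped in range. The same held for the neighbours in the order of each other member. Without LPD male 4, again the library singled out by its member values, 7 of 10 members passed this test, beside 14.7% of all genes. They were Fos (adjusted p = 0.0122), Fosb (0.00367), Junb (0.0348), Egr1 (0.00934), Nr4a1 (0.0194), Npas4 (0.00537) and Arc (3.38e-05).

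The spread among libraries of a group was larger for the median member than for the median gene in 5 of the 6 groups. The median SD of log2 CPM over the 10 members was 0.57 in LPD males and 0.32 in HFD males, where the median of the 8956 genes at 10 CPM or more was 0.19 and 0.15. In ND males it was 0.15 against 0.098, in ND females 0.20 against 0.17 and in LPD females 0.18 against 0.13. In HFD females the order was the other way, 0.27 against 0.34. In some groups single libraries were high or low for most members. HFD male 1 was the highest of its group for 9 of 10 and HFD male 2 the lowest for 9 of 10, ND female 4 was the highest for 8, HFD female 1 the lowest for 8 and LPD male 2 the lowest for 9. In ND males no library was highest for more than 5 members or lowest for more than 4. HFD male 2 and LPD male 2 had the highest insulin gene shares of their groups, 27.5 and 22.6%. HFD female 1 had the lowest share of its group, 15.2%, and ND male 4, highest for 5 members and lowest for 3, had the highest of its group, 18.2%. The part of the insulin share in the member levels was not tested.

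**Figure D4:**
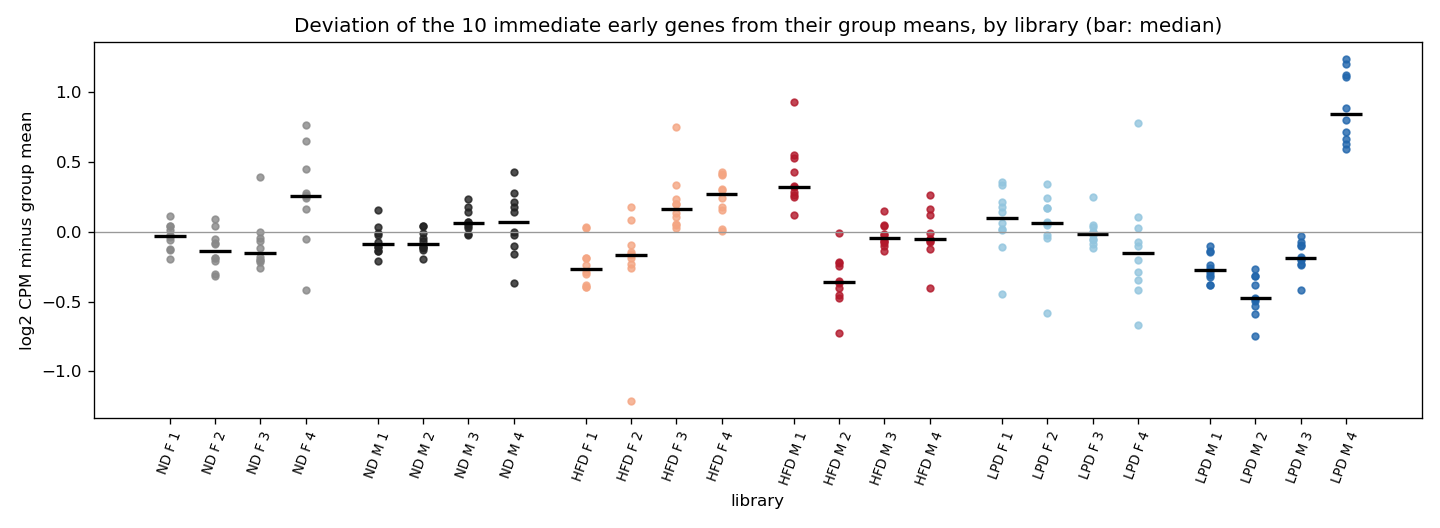
Deviation of each of the 10 genes from its group mean, in log2 CPM, for each of the 24 libraries; points are genes and bars are medians over genes. LPD male 4 stands at a median of 0.84 above its group mean, and LPD male 2 and HFD male 2 stand lowest, at -0.48 and -0.36.

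To describe the same spread, Fos was compared with the 9 other members across the 24 libraries after subtracting group means, with a 2-sided permutation test of 100000 draws within groups, adjusted over the 9 relations. Fos moved most closely with Egr1 (Pearson r = 0.959, adjusted p = 9e-05, the smallest the permutations can give; Spearman rho = 0.903, adjusted p = 0.000225). Its dimer partners Junb and Jun were at r = 0.898 (adjusted p = 0.00072) and 0.827 (adjusted p = 0.000135), and Fosb at 0.863 (adjusted p = 0.00103). Nr4a1 was at r = 0.849 (adjusted p = 0.00152), Arc at 0.833 (adjusted p = 0.00045), Ier2 at 0.705 (adjusted p = 0.00258) and Npas4 at 0.663 (adjusted p = 0.0327). Spearman rho for these 7 ran from 0.503 for Npas4 to 0.837 for Junb, each with an adjusted p of 0.0386 or less. Nr4a2 gave r = 0.399 (adjusted p = 0.0877) and rho = 0.324 (adjusted p = 0.140).

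Of the 9 relations 8 passed when adjusted over these 9. A raw p below 0.05 in the same test was found for 10.6% of all 19234 other genes tested. Adjusted over all of these, a choice made after the values were seen, 2 of 9 passed, Egr1 and Jun (adjusted p = 0.0304 each), beside 0.203% of genes. By r with Fos the members ranked 1st (Egr1), 4th (Junb), 10th (Fosb), 13th (Nr4a1), 15th (Arc), 19th (Jun), 82nd (Ier2), 129th (Npas4) and 1253rd (Nr4a2) of these genes. Without the 2 libraries farthest from the median of Fos, LPD male 4 and ND male 4, r was 0.924 for Egr1, 0.792 for Fosb, 0.748 for Junb, 0.730 for Jun, 0.856 for Nr4a1, 0.808 for Arc, 0.519 for Ier2, 0.559 for Npas4 and 0.290 for Nr4a2, and 8 passed over the 9. Without LPD male 4 alone, a choice made after the values were seen, 7 passed over the 9 and Npas4 (r = 0.338, adjusted p = 0.251) did not. All 10 values of a library share its RNA preparation and its depth. Among the other pairs the residual correlation was highest for Fosb with Nr4a1, at 0.943, and lowest for Nr4a2 with Ier2, at -0.21, each given as a description.

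**Figure D5:**
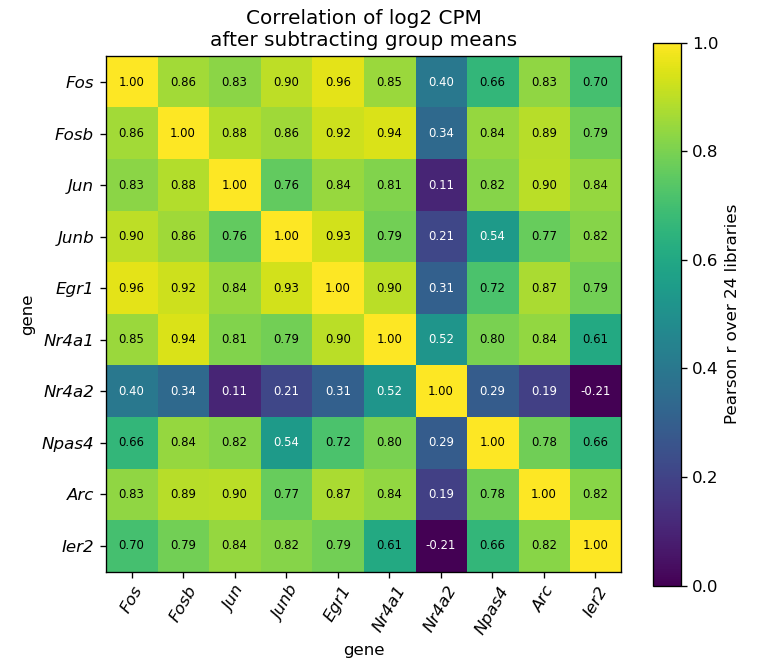
Pearson correlation of log2 CPM between each pair of the 10 genes over 24 libraries after group means were subtracted. Pairs without Nr4a2 run from 0.54 to 0.96, and those with Nr4a2 from -0.21 (drawn at the low end of the colour scale) to 0.52.

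Without subtracting group means, genes outside the list with the pattern most like a member's were ranked by Pearson r over the 24 libraries, as a description. For Egr1 they were Csrnp1 (0.926), Zfp36 (0.909), Irs2 (0.892), Gadd45g (0.874) and Maff (0.872). For Fos they were Krt8 (0.846), Gadd45g (0.844), Siah2 (0.844), Csrnp1 (0.833) and Cebpb (0.828). For Npas4 the values were lower, with Adpgk (0.728) first, then Per3 (0.715), A230051N06Rik (0.699), Slc40a1 (0.691) and Carmil3 (0.689). Zfp36 encodes a protein that binds AU-rich mRNAs and speeds their decay, and Irs2 an adaptor of the insulin receptor.

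A wider list of 56 other immediate early and early response genes, of which 53 were tested, was used to set the members beside their class. Its median in HFD against ND was -0.0081, where all tested genes had -0.056. In HFD against ND, 2 of 53 were called beside 7.20% of all genes, both lower: Homer1, a scaffold gene of neuronal synapses (-0.57 ± 0.13, adjusted p = 0.00631), and the kinase Plk3 (-0.36 ± 0.11, adjusted p = 0.0391). In females alone 5 of 53 were called beside 9.33% of all genes, 3 higher and 2 lower, with Homer1 at -1.02 ± 0.18 (adjusted p = 0.000954), 21.7 ± 2.90 CPM in ND and 10.7 ± 3.19 CPM in HFD females (SD, n = 4). In males Homer1 was at 21.0 ± 1.11 CPM in ND and 19.3 ± 2.55 CPM in HFD. Its difference over both sexes thus lay mainly in the HFD females, the libraries that stood apart in the share of detected genes at 1 to 9 counts. In males 3 of 53 were called beside 1.25%, all lower, led by Errfi1, an inhibitor of the EGF receptor (-0.83 ± 0.20, adjusted p = 0.0280). Errfi1 also differed in its HFD effect between the sexes (-1.25 ± 0.27, adjusted p = 0.0121), as 1 of 4 of the 53 that did, all in the same direction, beside 3.64% of all genes.

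Under LPD, over both sexes 1 of 53 was called beside 0.832% of all genes, Plk3 (-0.46 ± 0.11, adjusted p = 0.0393). In females 0 of 53 were called beside 0.307%, and in males 2 of 53 beside 0.187%, Errfi1 (-0.97 ± 0.20) and Rgs2, a regulator of G protein signalling (-2.28 ± 0.46), both at an adjusted p of 0.0287. Rgs2 averaged 24.1 ± 23.5 CPM in LPD and 116 ± 5.14 CPM in ND males (SD, n = 4). For HFD against LPD 4 of 53 were called beside 9.99% of all genes. Of these 2 were higher, Rgs2 (1.22 ± 0.31) and Klf6 (0.57 ± 0.17), and 2 lower, Homer1 (-0.54 ± 0.13) and Ier5 (-0.37 ± 0.091), with adjusted p-values of 0.00742 to 0.0321. Homer1 averaged 10.7 CPM in HFD and 21.4 CPM in LPD females. In males it averaged 19.3 CPM in HFD and 20.4 CPM in LPD. Between the sexes 5 of 53 were called beside 4.87% of all genes. Errfi1 was lower in males (-0.61 ± 0.11, adjusted p = 0.00144), and the ERK phosphatases Dusp4 (0.90 ± 0.17) and Dusp6 (0.75 ± 0.21), the ERK pathway inhibitor Spry4 (0.69 ± 0.15) and the repressor Nfil3 (0.34 ± 0.083) were higher, with adjusted p-values of 0.00156 to 0.0327.

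Of 40 kinases, calcium channel and calcineurin genes, CREB, SRF, NFAT and MEF2 family factors and coactivators known to act upstream of these genes, 37 were tested. In HFD against LPD 7 were called, 6 lower and 1 higher, beside 9.99% of all genes called and 7.61% called lower. The list median was -0.096 where all tested genes had -0.054. The lower ones were the SRF partner Elk3 (-0.44 ± 0.087, adjusted p = 0.00176), the CREB coactivators Crtc1 (-0.38 ± 0.075), Crtc3 (-0.38 ± 0.11) and Crebbp (-0.24 ± 0.063), a catalytic subunit of protein kinase A, Prkaca (-0.33 ± 0.089), and the CREB relative Atf1 (-0.28 ± 0.088). The other catalytic subunit gene on the list, Prkacb, was not called. Its group means were 412 to 520 CPM, where those of Prkaca were 101 to 144 CPM. The calcium-dependent kinase Camk4 was higher (1.26 ± 0.39, adjusted p = 0.0361), at a low level in every group, with group means of 0.728 to 2.86 CPM. In HFD against ND 1 of 37 was called beside 7.20% of all genes, Elk4 (-0.24 ± 0.065, adjusted p = 0.0258). In LPD against ND 0 of 37 were called beside 0.832%. In these bulk samples a change in the share of cells that express a gene and a change in its RNA per cell cannot be told apart.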

How the data were processed

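Total RNA from sorted β cells was depleted of ribosomal RNA and sequenced as strand-specific libraries. Per the labels, the authors used cutadapt 2.10, STAR 2.7.8a, HOMER and DESeq2 with GRCm38.p6. No counting tool, annotation release or strand setting was named (not given in the sources used here). Raw counts per gene, with no normalisation, and FPKM were deposited by the authors; the deposited FPKM equalled counts divided by length and library total within 5e-04. The members and gene lists were chosen with earlier results of these data known.

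Columns were matched to samples by name. Counts were filtered (filterByExpr), scaled by TMM and fitted with edgeR 4.0.16 (limma 3.58.1, R 4.3.3) as 6 group means, with calls at a Benjamini-Hochberg adjusted p below 0.05. The smallest replicate difference was a chi-square of 4.32 per degree of freedom, so no library was counted as a duplicate. In 1 library 3 counts equal 0.114 to 0.241 CPM, which covers counting error only. Log2 CPM used a prior count of 0.5. The edgeR step was tested on simulated data. All 10 members are named; list genes were named by smallest adjusted p, up to 6 per comparison. Alternatives were DESeq2 (1.42.0) and its size factors, no filter, limma-trend on log2(FPKM + 1), voom with sample weights, only the libraries compared, a replicate block, the library numbers and leaving libraries out.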

Additional observations from a re-analysis of the deposited data

Results flagged for a closer look

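In each of the 60 sets of 4 libraries that 1 member and 1 group form, the gap of the highest or lowest library to its neighbour was compared with the whole range, and 9 sets exceeded the 95% value of Dixon's test for 4 samples. Chance flags about 1 in 20 such sets, and sets of the same 4 libraries are not independent. In 7 of the 9 the library was LPD male 4, the highest of its group. It stood at 1640 CPM for Fos (others 907 to 984), 2678 for Fosb (819 to 1070), 798 for Junb (262 to 316), 997 for Egr1 (415 to 458), 290 for Nr4a1 (73.7 to 108), 140 for Npas4 (44.1 to 49.5) and 214 for Ier2 (94.1 to 114). In the remaining 2 it was ND female 4, at 634 CPM for Junb (others 303 to 326) and 223 CPM for Ier2 (114 to 130). LPD male 4 thus stood apart in most members at once, and ND female 4 in a pair of them.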

How the results depend on the processing

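The counts of members called kept within 1.5 times their value in 89 of 108 other settings and in 256 of 265 settings that left out 1 library. For most comparisons the count was 0 with all libraries, so most of these settings only repeat the absence of a call. Over the libraries left out in turn, the count ran from 0 to 1 for HFD against ND, HFD against LPD, LPD against ND in males and the LPD effect in males minus females, from 1 to 3 for males against females and from 1 to 7 among the 6 groups; it was 7 for the relation with Fos without LPD male 4 (8 with all, 6 without subtracting group means and 2 when adjusted over all genes). For HFD against LPD it was 0 on the libraries compared alone, with limma-trend, and in the female or male groups only. For HFD against ND in males it was 2 on the libraries compared alone and 3 with voom. Voom gave 3 for LPD against ND in females, 8 in males, 7 for the LPD effect in males minus females, 3 for males against females and 10 among the 6 groups; without a filter the last was 2. For males against females it was 0 in the LPD groups only.

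The library numbers would place the 8 ND columns in the LPD groups of the other sex, against their Xist and Y-linked counts. Values of this setting for males against females and for LPD by sex thus rest on libraries placed in the wrong sex. With the library numbers, the counts would be 1 for HFD against ND, for LPD against ND in males and for the LPD effect in males minus females, Arc being higher in each. They would be 0 for HFD against LPD and for males against females. This setting renames the groups of the same libraries, and turned the sign of log2 differences: for HFD against ND, Nr4a2 0.54 and Arc 0.49; for HFD against LPD, Arc 0.13; in females Npas4 0.63; in males Fos -0.33, Junb 0.20 and Nr4a2 0.31; for LPD against ND in males Jun 0.14, Junb 0.13, Nr4a1 0.25 and Nr4a2 0.18; for the HFD effect in males minus females Npas4 -0.62; for the LPD effect Fosb 0.20, Junb 0.071 and Ier2 0.21; and for males against females Npas4 0.20. Signs also turned for Fosb in HFD against LPD in females only (-0.049) and for Npas4 in males against females in the HFD groups only (0.18). Leaving out 1 library turned uncalled values of Fosb in HFD against LPD (-0.014 to 0.34) and of Fosb (-0.63 to 0.091) and Nr4a1 (-0.63 to 0.19) in LPD against ND in males. The turned end of each of these ranges was the value without LPD male 2, and the other end that without LPD male 4. The causes were not tested.

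Replicate numbers did not pair the samples (same-number correlations -0.32 to 0.32, median -0.012, 10 of 60 above 0.1); the replicate block gave 0 members called for HFD against ND, 1 for HFD against LPD, 1 for males against females and 1 among the 6 groups, and changed no call of a member. The libraries compared alone are the whole set for males against females and among the 6 groups. Nr4a2, at 90 to 636 counts, was the least deeply sampled member.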
